A study of Mus musculus with 15 samples.

Results

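The S100 genes encode small calcium-binding proteins, and 9 of them are described here in the left ventricle of mice: S100a1, S100a4, S100a6, S100a8, S100a9, S100a10, S100a11, S100a13 and S100a16. They were taken by exact symbol from a table of read counts for 47069 genes, and each symbol matched 1 row. Messenger RNA of C57BL/6 left ventricle was sequenced in 15 libraries, 5 per group. The sham group had a sham operation and no treatment and was age matched at 10 weeks. The PBS group had a myocardial infarction and, 7 days later, an injection of phosphate-buffered saline into the heart muscle. The rHCI group had the same infarction and, at the same time, an injection of the hydrogel rHCI. The labels do not expand this name, which as general background stands for recombinant human collagen type I. Hearts of both infarcted groups were collected 2 days after the injection and were perfused with PBS before the tissue was frozen and ground. The labels give no injection for the sham group, so infarction and injection cannot be told apart in a comparison with sham. The samples are whole ventricle, and fewer cells of a type and less RNA per cell cannot be told apart in them.

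S100 proteins are built from a pair of helix-loop-helix calcium-binding motifs called EF hands, and most work as dimers. Calcium binding opens a surface through which the dimer holds a target protein, and several members are also released from cells and act on surface receptors. In the heart S100A1 is the cardiomyocyte member and acts on calcium release and uptake in the sarcoplasmic reticulum. S100A4, S100A6, S100A10 and S100A11 are expressed in stromal and other cells and bind annexins or the cytoskeleton. S100A8 and S100A9 form calprotectin, a dimer that neutrophils hold in large amounts, and bind the receptors TLR4 and RAGE.

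All 9 genes lie on mouse chromosome 3 (GRCm38, GENCODE M21 annotation) in 2 blocks. The first block runs from S100a1 to S100a9 over 185 kb and holds 7 of the 9 genes among 16 annotated genes. It has S100a1 (ENSMUSG00000044080, chr3:90511034-90514392, minus strand), S100a13 (ENSMUSG00000042312, chr3:90514435-90524581, plus strand), S100a16 (ENSMUSG00000074457, chr3:90537254-90543151, plus strand) and S100a4 (ENSMUSG00000001020, chr3:90603771-90606045, plus strand). It goes on with S100a6 (ENSMUSG00000001025, chr3:90612882-90624181, plus strand), S100a8 (ENSMUSG00000056054, chr3:90668978-90670035, plus strand) and S100a9 (ENSMUSG00000056071, chr3:90692632-90695721, minus strand). The second block holds S100a11 (ENSMUSG00000027907, chr3:93520488-93526287, plus strand) and S100a10 (ENSMUSG00000041959, chr3:93555080-93564643, plus strand) over 44.2 kb. S100a4 shares 302 bases, 51.7% of its exon bases, with the predicted gene Gm42674 on the same strand. Gm42674 had 0 counts in all 15 libraries, and the sources used here do not say how shared reads were assigned. The pseudogene S100a11-ps had 2 counts over all libraries, against 825 to 7081 for S100a11 in single libraries.

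The sequences below are shown because neighbouring genes of the first block moved in opposite directions or by very different amounts, and because S100a8, S100a9, S100a4 and S100a11 had the 4 highest rises of the 9 genes. They are RefSeq sequences of GRCm38.p6, 5′ to 3′ on the strand of the gene and ending at the last base before the RefSeq start of transcription. RefSeq held such a sequence for 8 of the 9 genes, and S100a10 was not matched. The GENCODE models of S100a1, S100a6, S100a8 and S100a11 begin upstream of the RefSeq start, inside the window. Capitals mark matches on either strand to the C/EBP motif TTNNGNAA, the AP-1 motif TGANTCA or the TATA motif TATAAA, of which the last was added after values were seen.
S100a8 (chr3:90668931-90669070, plus strand): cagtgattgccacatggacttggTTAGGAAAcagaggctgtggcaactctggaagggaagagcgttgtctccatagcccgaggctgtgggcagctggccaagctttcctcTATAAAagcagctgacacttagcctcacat
S100a9 (chr3:90695722-90695861, minus strand): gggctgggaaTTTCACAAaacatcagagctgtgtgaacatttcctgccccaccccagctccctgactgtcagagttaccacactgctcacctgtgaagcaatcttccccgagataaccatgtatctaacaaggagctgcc
S100a4 (chr3:90603650-90603769, plus strand): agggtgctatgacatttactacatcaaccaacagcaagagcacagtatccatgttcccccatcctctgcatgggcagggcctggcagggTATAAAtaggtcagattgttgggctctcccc
S100a11 (chr3:93520246-93520495, plus strand): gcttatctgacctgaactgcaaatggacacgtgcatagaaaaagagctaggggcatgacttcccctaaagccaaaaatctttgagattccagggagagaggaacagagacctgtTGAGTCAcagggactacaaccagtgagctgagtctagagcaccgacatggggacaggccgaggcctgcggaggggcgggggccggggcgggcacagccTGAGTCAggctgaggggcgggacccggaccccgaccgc
Between S100a1 and S100a13 (chr3:90514393-90514434, plus strand): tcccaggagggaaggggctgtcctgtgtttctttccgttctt

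In the 250 bases before the start, S100a11 held the AP-1 motif at 136 to 130 and at 38 to 32 bases before it, and S100a16 held it at 192 to 186 bases before its second listed start. S100a8 held the C/EBP motif at 117 to 110 bases, and S100a9 held it at 236 to 229 and at 130 to 123 bases. The TATA motif was found in S100a8 at 30 to 25 and in S100a4 at 31 to 26 bases before the start. None of the 3 motifs was found in this window in S100a1, S100a13 or S100a6, or at the first listed start of S100a16. Among 32851 RefSeq promoter windows of the same length, 6.75% held the AP-1 motif, 36.8% the C/EBP motif and 12.4% the TATA motif. These are matches of letters and show no binding. S100a1 and S100a13 are read in opposite directions from starts that leave only the 42 bases printed above between the GENCODE models, and the RefSeq start of S100a1 lies farther from S100a13.

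The libraries held 32978702 to 103356830 counts. Mitochondrial genes took 15.3% to 17.2% of counts in sham, 10.1% to 12.5% in PBS and 9.77% to 14.5% in rHCI. The tissue carried the markers of its label, and the summed level of 10 cardiomyocyte genes was 71350 to 79720 CPM in sham, 40440 to 55550 in PBS and 41880 to 61290 in rHCI. CPM are read counts scaled to a common library total, here with the TMM factors of edgeR. In PBS against sham, 8 of these 10 cardiomyocyte genes fell, 9 of 10 fibroblast genes rose and 1 fell, and 10 of 10 macrophage and monocyte genes rose. The shares over all genes tested in that comparison were 36.5% for rises and 34.9% for falls. PBS 6 held transcripts of the lung: 7 genes of lung and liver summed to 66.3 CPM there and to 0.176 to 0.553 CPM in every other library. A number in the sample descriptions is shared by 12 libraries and differs in PBS 6, rHCI 1 and Sham 19. It is read here as the sequencing run, which the labels do not state, and is called the run below.

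In PBS against sham, 8 of the 9 S100 genes rose and S100a1 fell. The rises ran from 1.11-fold for S100a13 to 10.1-fold for S100a8, and S100a1 fell by 26.9%. All 9 passed the filter on low counts and the test, the quasi-likelihood test of edgeR at 0.05, with Benjamini-Hochberg adjustment over all 16207 genes tested. Of all genes tested in that comparison, 36.5% rose and 34.9% fell. The sham and PBS libraries did not overlap for 8 of the 9 genes, S100a13 being the exception, against 59.0% of all genes. The median log2 fold change was 1.33 over the 9 genes and -0.009 over all genes. In rHCI against sham, which shares the 5 sham libraries, 8 of 9 rose and S100a1 fell again, with a median of 1.25, and 8 had groups without overlap, S100a16 being the exception. Of all 16076 genes tested there, 34.1% rose, 29.7% fell and 49.4% had groups without overlap. The 9 genes were chosen with earlier results of these data known. Their counts and medians against sham describe the chosen genes and are no test of the family.

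**Figure D1:**
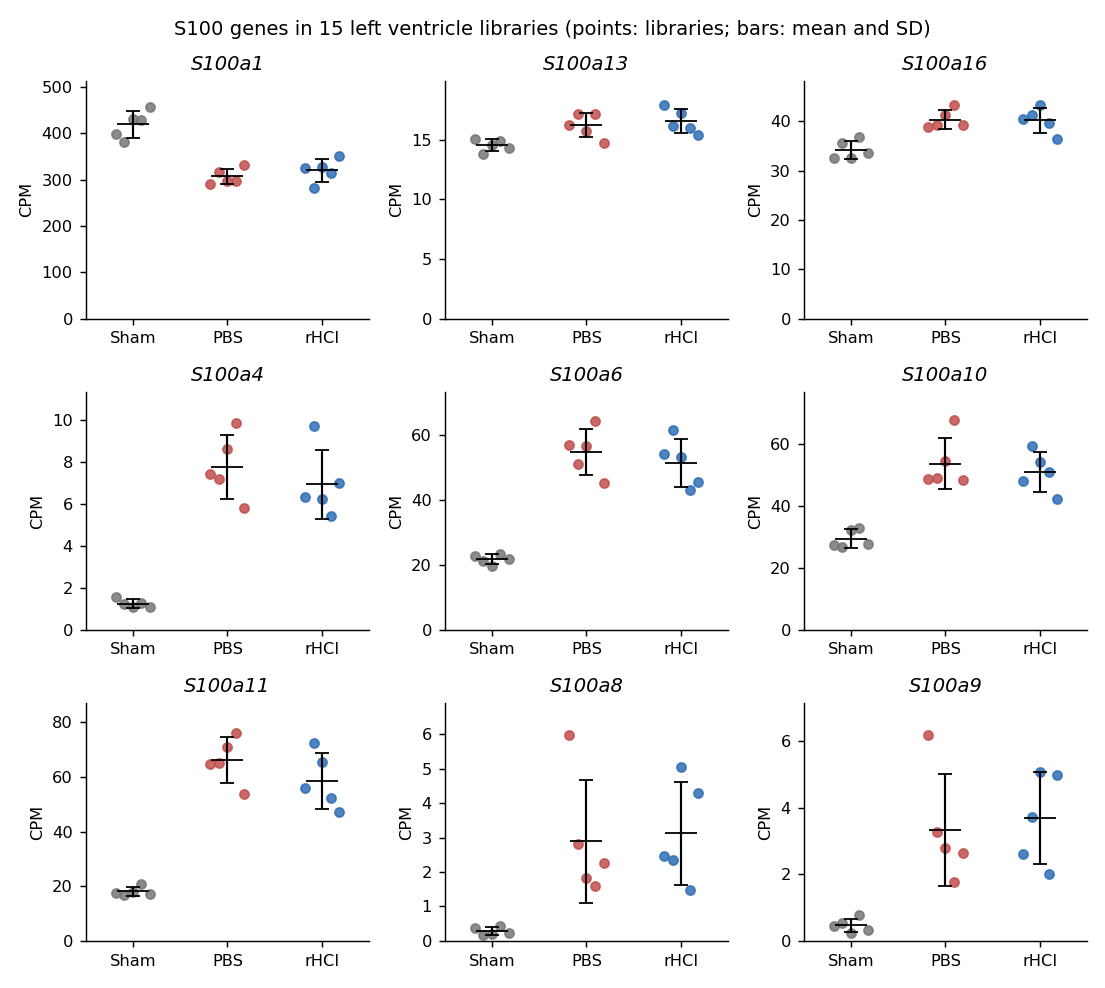
CPM of the 9 S100 genes in each library (points), with the mean and SD of each group of 5 libraries (bars). S100a1 is the gene whose sham libraries (381 to 457 CPM) all lie above the infarcted ones (282 to 351 CPM), while S100a4, S100a6, S100a8, S100a9, S100a10 and S100a11 are lowest in the 5 sham libraries.

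Levels of different genes were compared as CPM per kb of the bases covered by any exon. In sham, S100a1 stood highest at 604 ± 42.5 CPM per kb (SD, n = 5), followed by S100a11 at 35.4 ± 3.27 and S100a10 at 24.2 ± 2.43. S100a16 at 21.2 ± 1.18 and S100a13 at 20.3 ± 0.693 CPM per kb came next and differed by less than their spread. S100a6 followed at 15.9 ± 1.10 CPM per kb, and S100a4 at 2.13 ± 0.359. The calprotectin genes were lowest, S100a9 at 0.895 ± 0.391 and S100a8 at 0.399 ± 0.167 CPM per kb. In PBS the order changed at 1 place, where S100a6 at 40.2 ± 5.21 CPM per kb stood above S100a16 at 25.0 ± 1.16 and S100a13 at 22.7 ± 1.43. S100a1 was again first there at 442 ± 24.1 CPM per kb and S100a11 second at 130 ± 16.3, while S100a10 at 44.2 ± 6.80 and S100a6 differed by less than their spread. S100a9 at 6.39 ± 3.24 CPM per kb and S100a8 at 4.17 ± 2.57 in PBS were also within each other's spread. The order in rHCI was that of PBS, from 461 ± 35.7 CPM per kb for S100a1 and 115 ± 20.03 for S100a11 to 4.50 ± 2.15 for S100a8.

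S100a1 fell after infarction, and so did most genes of the muscle list set beside it and most cardiomyocyte markers. The level in the sham libraries 16 to 20 was 399, 381, 430, 428 and 457 CPM. In PBS 2, 6, 9, 12 and 14 it was 291, 317, 298, 297 and 331 CPM, and in rHCI 1, 3, 7, 11 and 13 it was 325, 282, 327, 315 and 351 CPM. Every sham library was above every infarcted one, while PBS and rHCI overlapped over most of their range. The log2 fold change was -0.45 ± 0.06 (SE) in PBS against sham (adjusted p 1.17e-05, edgeR) and -0.38 ± 0.07 in rHCI against sham (adjusted p 0.000409, edgeR).

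The list of S100A1 targets and calcium store genes in muscle had 7 genes tested in PBS against sham. Of these 5 fell, 1 rose and 1 did not pass, with a median log2 fold change of -0.95. Of all genes tested there, 34.9% fell and 36.5% rose, and 8 of the 10 cardiomyocyte markers fell. Atp2a2, the calcium pump of the sarcoplasmic reticulum (SERCA2), was at 21970 ± 485 CPM in sham (SD, n = 5), 11380 ± 1767 in PBS and 12650 ± 2605 in rHCI, a log2 fold change of -0.95 ± 0.11 in PBS against sham (adjusted p 4.47e-06, edgeR). Its inhibitor phospholamban (Pln) changed by -0.95 ± 0.10 and the calcium release channel of the same store, Ryr2, by -0.95 ± 0.14 on the log2 scale. Ryr2 levels were 2293 ± 198 CPM in sham, 1192 ± 318 in PBS and 1424 ± 248 in rHCI. Titin (Ttn) changed by -1.19 ± 0.23 and the ATP synthase subunit Atp5a1 by -0.72 ± 0.08. Sri, the calcium-binding regulator of the release channel, rose by 0.45 ± 0.06 on the log2 scale (adjusted p 1.30e-05, edgeR), and the store's calcium buffer Casq2 did not pass at -0.18 ± 0.09. In rHCI against sham 5 fell and 1 rose, where 29.7% of all genes fell and 34.1% rose. In rHCI against PBS none of the 7 passed.

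The fall of S100a1 was set against the mean log2 CPM of the 10 cardiomyocyte markers. From sham to PBS S100a1 changed by -0.45 and the marker mean by -0.61, so the gene gained 0.16 relative to it. By an exact two-sided permutation test over all 252 arrangements this difference had p = 0.0317, and p = 0.0952 after adjustment over the 18 tests of this kind, so it did not pass. Leaving out PBS 14 gave 0.20 with an adjusted p of 0.0476 by the same exact test. The levels of S100a1 and of the cardiomyocyte markers moved together here, and the part of tissue composition in the fall was not tested.

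**Figure D2:**
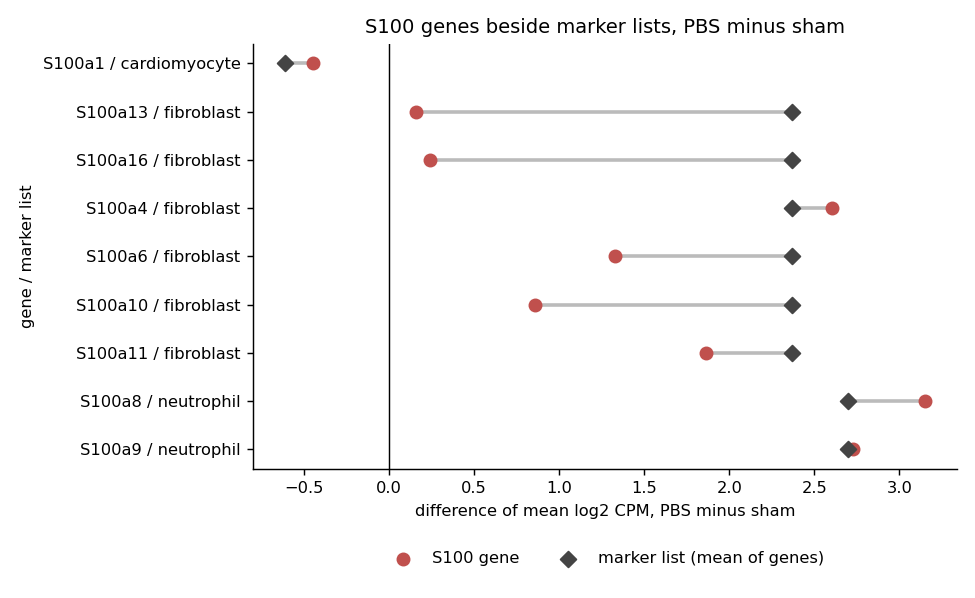
Difference of mean log2 CPM between PBS and sham for each S100 gene (circles) and for the mean of the marker list set beside it (diamonds), joined by grey lines. The mean of the fibroblast markers rose by 2.37, above S100a13, S100a16, S100a10, S100a6 and S100a11. S100a4 and the calprotectin genes lie near or above the means of their lists.

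S100a13 and S100a16 rose only slightly. S100A13 takes part in the export of proteins that lack a signal peptide, such as FGF1, and S100A16 is a broadly expressed member. S100a13 was at 15.0, 13.8, 14.6, 14.9 and 14.4 CPM in the sham libraries, at 16.3, 17.2, 15.8, 17.2 and 14.8 in PBS and at 17.9, 16.2, 17.3, 15.95 and 15.4 in rHCI, each in the library order given above. PBS 14 lay within the sham range, and all rHCI libraries lay above it. The log2 fold change of S100a13 was 0.16 ± 0.06 in PBS against sham (adjusted p 0.0204, edgeR) and 0.19 ± 0.06 in rHCI against sham (adjusted p 0.00909, edgeR). The call in PBS against sham was lost with this unexplained number, read as the run, as a covariate (0.14, adjusted p 0.0685, edgeR), with the 12 libraries that share it alone (0.14, adjusted p 0.0692) and without Sham 17 (adjusted p 0.0526), PBS 6 (0.0586) or PBS 12 (0.0501), each by edgeR.

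S100a16 was at 32.6, 35.6, 32.5, 36.8 and 33.5 CPM in the sham libraries, at 38.9, 39.2, 41.3, 43.3 and 39.2 in PBS and at 40.5, 41.3, 43.3, 39.7 and 36.4 in rHCI. All PBS libraries were above sham, and rHCI 13 lay below the highest sham library. The log2 fold changes were 0.24 ± 0.05 in PBS against sham (adjusted p 0.000822, edgeR) and 0.24 ± 0.06 in rHCI against sham (adjusted p 0.0029, edgeR). With library totals in place of TMM factors the median of all genes moved by 0.28 on the log2 scale in PBS against sham. The log2 fold changes were then 0.43 for S100a13 and 0.51 for S100a16, or 0.17 and 0.25 relative to the median of all genes in that setting. No S100 gene changed direction under that scaling in PBS against sham, and S100a1 was at -0.18 (adjusted p 0.00374, edgeR), or -0.45 relative to the median.

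S100a1 and S100a13, whose GENCODE models are 42 bases apart, went in opposite directions. The ratio of their CPM was 26.5 to 31.9 in sham, 17.3 to 22.4 in PBS and 17.5 to 22.7 in rHCI. The sham libraries did not overlap with either infarcted group, and this ratio was chosen after the values were seen and carries no test.

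S100a4, S100a6, S100a10 and S100a11 rose between 1.82-fold and 6.22-fold in PBS against sham. They are called the stromal genes here from general background, although other cells express them too, and their cells of origin were not measured. S100a4, also named fibroblast-specific protein although leukocytes express it too, stood at 1.59, 1.21, 1.07, 1.28 and 1.09 CPM in the sham libraries. It was at 7.43, 7.21, 8.63, 9.87 and 5.82 CPM in PBS and at 6.34, 9.71, 6.24, 5.45 and 6.99 CPM in rHCI. The lowest infarcted library, rHCI 11, was above the highest sham library, Sham 16. The log2 fold change was 2.64 ± 0.16 in PBS against sham (adjusted p 1.16e-08, edgeR) and 2.48 ± 0.17 in rHCI against sham (adjusted p 1.94e-07, edgeR). By size of rise S100a4 ranked 559 among the 16207 genes tested.

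S100a11, which binds annexin A1, was at 17.6, 16.9, 18.1, 21.0 and 16.99 CPM in sham, at 64.8, 65.0, 71.1, 76.1 and 53.9 in PBS and at 56.0, 72.6, 65.3, 52.2 and 47.2 in rHCI. Every infarcted library was above every sham library, and PBS 14 and rHCI 13 were the lowest of their groups. Its log2 fold change was 1.87 ± 0.09 in PBS against sham, with the smallest adjusted p of the 9 genes (1.77e-09, edgeR), and 1.71 ± 0.11 in rHCI against sham (adjusted p 1.31e-07, edgeR). S100a6, calcyclin, was at 22.8, 21.2, 19.6, 23.5 and 21.8 CPM in sham, at 57.1, 51.2, 56.6, 64.3 and 45.3 in PBS and at 54.0, 61.5, 53.4, 43.0 and 45.6 in rHCI. Here too the groups lay apart, with log2 fold changes of 1.33 ± 0.09 in PBS against sham (adjusted p 2.27e-08, edgeR) and 1.25 ± 0.09 in rHCI against sham.

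S100a10 encodes p11, which joins a pair of annexin A2 molecules and brings plasminogen to the cell surface. It was at 27.3, 26.7, 32.3, 32.8 and 27.7 CPM in sham, at 48.6, 48.8, 54.5, 67.5 and 48.3 in PBS and at 47.9, 59.2, 54.2, 50.9 and 42.1 in rHCI. PBS 12 was the highest library and no infarcted library reached down to sham. The log2 fold change was 0.87 ± 0.10 in PBS against sham (adjusted p 3.41e-06, edgeR) and 0.80 ± 0.09 in rHCI against sham (adjusted p 1.36e-05, edgeR).

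Anxa2, its partner, rose more: 58.8, 54.2, 64.2, 66.8 and 52.4 CPM in sham became 188, 191, 209, 246 and 168 in PBS and 173, 225, 207, 164 and 145 in rHCI, a log2 fold change of 1.75 ± 0.10 in PBS against sham. The S100a10 to Anxa2 ratio of CPM was 0.464 to 0.528 in sham, 0.256 to 0.288 in PBS and 0.262 to 0.310 in rHCI. The groups with infarction did not overlap with sham, and the mean log2 ratio differed from sham by -0.89 in PBS and by -0.83 in rHCI. Both differences had p = 0.00794 by exact permutation test, the smallest that 5 against 5 libraries can give, and an adjusted p of 0.0238 over 6 such tests. From PBS to rHCI the log2 ratio differed by 0.07 (exact permutation p = 0.254, adjusted 0.305).

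**Figure D3:**
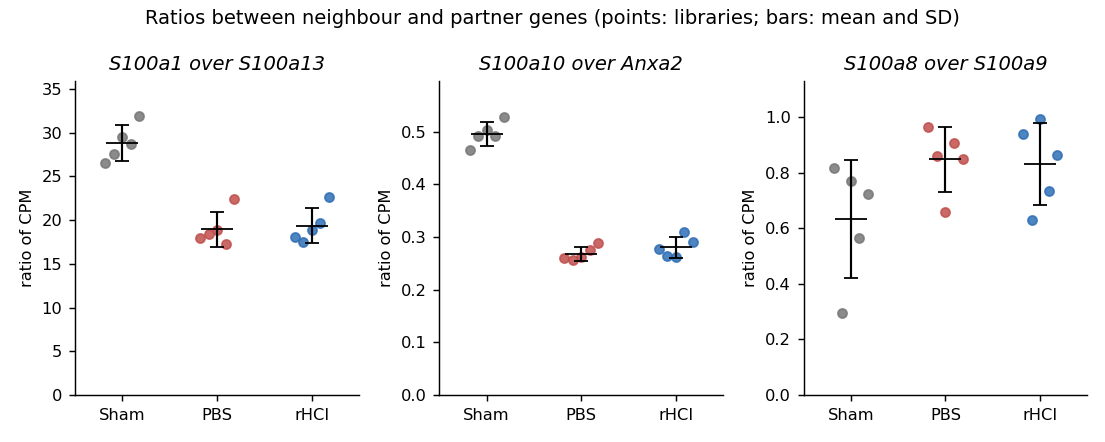
Ratios of CPM between S100a1 and its neighbour S100a13, between S100a10 and its partner Anxa2 and between S100a8 and its partner S100a9, in each library (points) with the mean and SD of each group (bars). The first 2 ratios are lower in every infarcted library than in every sham library, and the third overlaps between the groups.

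The list of membrane and cytoskeletal partners of S100 proteins had 15 genes tested in PBS against sham. Of these 8 rose, 5 fell and 2 did not pass, with a median log2 fold change of 0.68, while 36.5% of all genes rose and 34.9% fell. Plau, the plasminogen activator urokinase, rose by 2.21 ± 0.18 on the log2 scale. Anxa1, the partner of S100A11, went from 21.0 ± 1.79 CPM (SD, n = 5) in sham to 95.5 ± 13 in PBS, a log2 fold change of 2.18 ± 0.09. Fgf1, a growth factor that S100A13 helps to export, changed by -0.60 ± 0.10. The calls of Anxa6 and Sugt1 turned from lower to higher with library totals in place of TMM factors, and 12 rose and 3 fell under that scaling. In rHCI against sham 9 rose, 4 fell and 3 did not pass of 16 tested, where 34.1% of all genes rose and 29.7% fell. With library totals 11 rose and 1 fell in that comparison, with Anxa6 changing direction and no longer passing.

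Set beside the fibroblast markers, whose mean log2 CPM rose by 2.37 from sham to PBS, 3 of the 4 stromal genes rose less. Single markers were far apart, with log2 fold changes from -0.23 for Gsn, 0.99 for Pdgfra and 1.08 for Dcn to 4.73 for Col1a1. The differences to the mean therefore depend on which genes are listed, which the test does not address. The difference to the marker mean was -0.50 for S100a11, -1.04 for S100a6 and -1.51 for S100a10, each with exact permutation p = 0.00794 and an adjusted p of 0.0286 over 18 tests. S100a13 and S100a16 differed from it by -2.21 and -2.13, with the same p. S100a4 was 0.24 above it, which did not pass (exact permutation p = 0.119, adjusted 0.238). Summed fibroblast markers were at 2526 to 2951 CPM in sham, 14670 to 21240 in PBS and 13590 to 21140 in rHCI, and macrophage and monocyte markers at 141 to 180, 461 to 630 and 465 to 581 CPM. Both lists moved with these genes, and their part in the rises was not tested.

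S100a8 and S100a9, the calprotectin pair, had the highest estimated folds of the 9 genes and the widest intervals. The place of S100a9 above S100a4 rests on PBS 2, without which the log2 fold change in PBS against sham was 2.51 for S100a9 and 2.65 for S100a4. S100a8 was at 0.363, 0.164, 0.191, 0.433 and 0.236 CPM in sham, at 5.98, 2.81, 1.84, 1.60 and 2.26 in PBS and at 2.45, 2.35, 5.06, 1.47 and 4.30 in rHCI. These levels rest on 8 to 27 counts per sham library and on 94 to 306 counts per infarcted library. PBS 2 stood highest in the PBS group, rHCI 7 and 13 in the rHCI group, and no infarcted library reached down to sham. The log2 fold change was 3.33 ± 0.40 in PBS against sham (adjusted p 7.04e-06, edgeR) and 3.49 ± 0.38 in rHCI against sham (adjusted p 7.83e-06, edgeR).

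S100a9 moved with S100a8. It was at 0.444, 0.553, 0.248, 0.767 and 0.325 CPM in sham, at 6.20, 3.27, 2.79, 1.76 and 2.65 in PBS and at 2.61, 3.74, 5.09, 2.00 and 4.98 in rHCI. PBS 2 was again the highest PBS library, and the sham libraries again lay apart. The log2 fold change was 2.83 ± 0.36 in PBS against sham (adjusted p 1.05e-05, edgeR) and 3.01 ± 0.33 in rHCI against sham (adjusted p 8.41e-06, edgeR). S100a8 and S100a9 ranked 278 and 459 by rise among the 16207 genes of PBS against sham. Their ratio of CPM ran from 0.296 to 0.818 in sham, 0.658 to 0.965 in PBS and 0.629 to 0.993 in rHCI. The mean log2 ratio was 0.43 higher in PBS than in sham, which did not pass (exact permutation p = 0.111, adjusted 0.222).

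Of 14 neutrophil markers, 8 were tested in PBS against sham and all 8 rose, where 36.5% of all genes rose. Their summed level, over all 14, was 2.496 to 3.93 CPM in sham, 19.5 to 43.5 in PBS and 15.8 to 32.96 in rHCI, with PBS 2 the highest library here too. Some defining neutrophil genes were near 0 in every library: Ly6g had 0 to 6 counts, the granule protease Elane 0 to 8, the granule enzyme Mpo 0 to 13 and the granule peptide Camp 0 to 14. The granule genes Ngp and Ltf were also low in sham, at 0 to 2 and 0 to 12 counts, and reached 79 and 49 counts in rHCI 13 and 32 and 30 counts in PBS 12. The neutrophil score, the mean log2 CPM of the 9 markers that passed the filter over all 15 libraries (Ltf beside the 8), rose by 2.70 from sham to PBS. Several of its genes passed the filter through the infarcted groups, such as Trem1 with 1 to 4 counts per sham library. The count of 8 that rose and the rise of the score are therefore set in part by that filter. A test against the score cannot show that the pair moved with neutrophils. S100a8 rose by 0.46 more (exact permutation p = 0.175, adjusted 0.286) and S100a9 by 0.03 more (exact permutation p = 0.929, adjusted 0.983), and neither passed. The part of neutrophil number in the rises was not tested.

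Of 12 receptors of released S100 proteins and signalling genes tested in PBS against sham, 10 rose and 2 fell, with a median log2 fold change of 0.66. Among all genes tested there, 36.5% rose and 34.9% fell. Il1b, the cytokine interleukin 1 beta, rose by 3.55 ± 0.41 on the log2 scale, from 0.319 ± 0.0894 CPM (SD, n = 5) to 3.86 ± 2.54. The cytokine Tnf rose by 2.64 ± 0.29 and the inflammasome sensor Nlrp3 by 2.18 ± 0.28. Tnf had 4 to 10 counts per sham library and passed the filter on low counts through the infarcted groups. Its place among the 10 that rose is therefore set in part by that filter. Cd14, the co-receptor of TLR4, rose by 1.92 ± 0.11. Tlr4 itself was at 27.5 ± 5.36 CPM in sham, 41.5 ± 11.5 in PBS and 39.1 ± 11.6 in rHCI and rose by 0.60 ± 0.17 in PBS against sham (adjusted p 0.00629, edgeR) with groups that overlapped. Cd36, a fatty acid carrier that also binds calprotectin, changed by -0.74 ± 0.09, and Bsg, a receptor of S100A9, by -0.61 ± 0.07. In rHCI against sham the counts were again 10 and 2, where 34.1% of all genes rose and 29.7% fell.

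Ager, which encodes RAGE, a receptor of most released S100 proteins, rose by 2.59 ± 0.70 on the log2 scale in PBS against sham (adjusted p 0.0048, edgeR). Its sham libraries were at 0.269, 0.287, 0.114, 0.0984 and 0.135 CPM, and its PBS libraries at 0.521, 3.35, 0.635, 0.337 and 0.348. The sham values rest on 5 to 20 counts per library, and Ager passed the filter on low counts through the infarcted groups. PBS 6, the library with lung transcripts, was the high value, and RAGE is abundant in lung. Without PBS 6 the log2 fold change was 1.31 ± 0.35 (adjusted p 0.00506, edgeR), and in rHCI against sham it was 1.08 ± 0.30 (adjusted p 0.00764, edgeR).

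Other S100 genes were few at these depths. Of 8 further S100 genes found in the table, only S100b and S100a7a passed the filter on low counts. S100b was at 0.919 ± 0.194 CPM (SD, n = 5) in sham, 1.55 ± 0.227 in PBS and 1.39 ± 0.308 in rHCI, and rose by 0.74 ± 0.17 on the log2 scale in PBS against sham (adjusted p 0.00142, edgeR). S100a7a, which lies just upstream of S100a8 in the first block, was at 0.201 ± 0.0742, 0.402 ± 0.135 and 0.563 ± 0.105 CPM and rose by 1.12 ± 0.31 (adjusted p 0.00561, edgeR). It was the single gene of the first block, beside the 7, that could be tested. The other S100 genes of that block, S100a2, S100a3, S100a5 and S100a14, had group means of 0 to 0.0569 CPM.

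The hydrogel was compared with saline in rHCI against PBS, which asks whether the injected material changed the S100 genes of the infarcted ventricle 2 days later. None of the 9 genes passed and none had groups without overlap. Of all 16383 genes tested, 0% passed and 0.501% had groups without overlap, while 579 had an unadjusted p under 0.05. DESeq2 called 6 genes of the whole table and limma-voom 3, none of them among the 9. At an unadjusted p under 0.05 edgeR and DESeq2 each gave 0 of the 9 and limma-voom with quality weights gave 1, S100a11, which is named after its value was seen (log2 fold change -0.23, adjusted p 0.386).

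The differences that the data allow are narrow for some genes and wide for others. For S100a16 the change was -0.31% with a 95% interval from -8.07% to 8.10%, and for S100a13 1.98% with an interval from -7.13% to 12%. For S100a1 it was 4.34%, with an interval from -5.11% to 14.7%. The 4 stromal genes were lower in rHCI by estimates that did not pass: -11.0% for S100a4 (from -31.3% to 15.4%), -11.3% for S100a11 (from -26.3% to 6.89%), -6.12% for S100a6 (from -20.8% to 11.3%) and -4.96% for S100a10 (from -19.7% to 12.4%). The calprotectin pair was least constrained, with 10.7% for S100a8 (from -40.0% to 104%) and 12.8% for S100a9 (from -32.6% to 88.8%). Adjusted p-values of the 9 genes ran from 0.871 to 0.987 (edgeR). Removing 1 library changed the sign of these differences for S100a8, S100a10, S100a13 and S100a16.

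**Figure D4:**
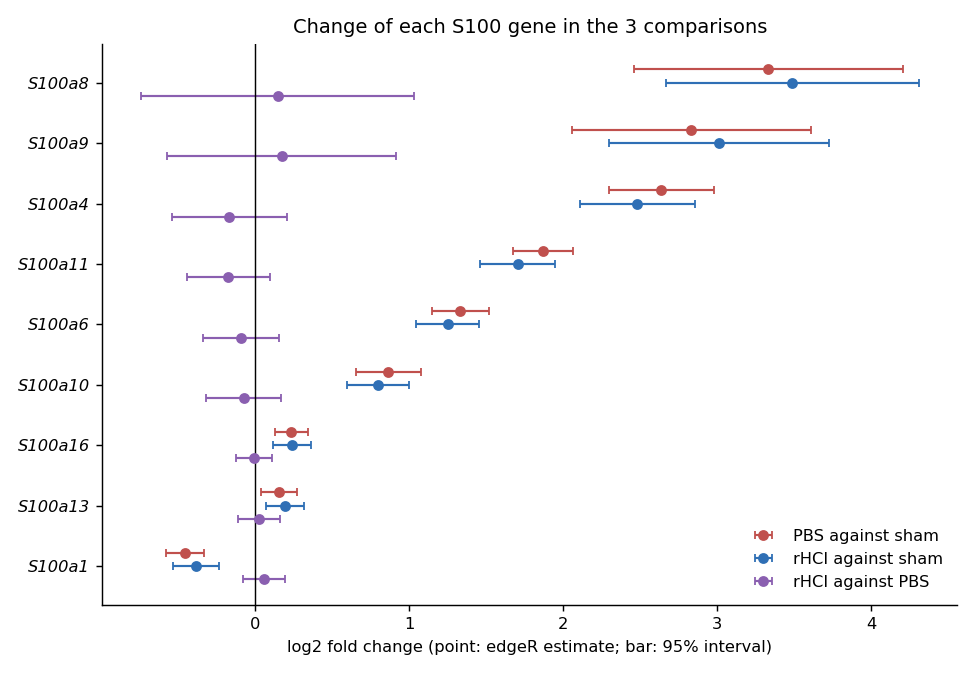
Log2 fold changes of the 9 S100 genes in PBS against sham (red), rHCI against sham (blue) and rHCI against PBS (purple), with 95% intervals from edgeR. The intervals of both comparisons with sham, which share the sham libraries, exclude 0 for every gene, and those of rHCI against PBS include 0 for every gene.

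Genes around the S100 proteins did not pass in rHCI against PBS either. The counts were 0 of 7 genes of the muscle list, 0 of 16 partners, 0 of 12 receptor and signalling genes and 0 of 2 other S100 genes. Atp2a2 differed by 0.15 ± 0.16, Ryr2 by 0.26 ± 0.17, Anxa2 by -0.13 ± 0.13 and Il1b by 0.43 ± 0.40 on the log2 scale. Ager differed by -1.51 ± 0.65, and by -0.23 ± 0.26 without PBS 6. Between rHCI and PBS no difference of the 9 genes relative to their marker lists passed by exact permutation test (adjusted p from 0.224 to 0.984), nor did that of S100a10 relative to Anxa2 or of S100a8 relative to S100a9. Leaving out PBS 12 gave S100a6 a difference of 0.13 from the fibroblast markers, and leaving out rHCI 3 gave S100a13 one of 0.28, each with an adjusted p of 0.0238 by exact permutation test.

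Among the 10 infarcted libraries, most of the pairs that passed lay in 2 sets of genes. Pearson's r of log2 CPM passed for 8 of the 36 pairs and Spearman's rho for 6, by permutation tests of 100000 draws with Benjamini-Hochberg adjustment over the pairs. The libraries share the scaling and the tissue composition, which these tests do not remove, and PBS and rHCI libraries were pooled. The share of passing pairs among other genes is not given here, so these counts cannot be called particular to S100 genes. S100a8 and S100a9 had r = 0.949 (permutation p = 9e-05, adjusted 0.00324) and rho = 0.879 (permutation p = 0.00154, adjusted 0.0276), and r = 0.900 without PBS 2 and rHCI 7, the libraries farthest from the median of S100a8.

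The second set held the stromal genes and S100a16, though not all of its pairs passed. S100a6 and S100a11 had r = 0.894 (permutation p = 0.0007, adjusted 0.0126) and rho = 0.830 (permutation p = 0.0045, adjusted 0.0332), and r = 0.855 without the 2 farthest libraries. S100a16 and S100a10 had r = 0.865 (permutation p = 0.00186, adjusted 0.0167) and rho = 0.830 (permutation p = 0.00461, adjusted 0.0332), and r = 0.703 without the 2 farthest. For S100a4 and S100a6 r was 0.852 (permutation p = 0.00259, adjusted 0.0186) and rho 0.891 (permutation p = 0.0012, adjusted 0.0276), and r was 0.697 without the 2 farthest. These pairs passed on both scales, as did S100a10 and S100a11, with r = 0.836 (permutation p = 0.00132, adjusted 0.0158), rho = 0.867 (permutation p = 0.0023, adjusted 0.0276) and r = 0.757 without the 2 farthest. S100a16 and S100a11 had r = 0.758 and rho = 0.806 (permutation p of 0.0103 and 0.00744, adjusted 0.0465 and 0.0446), which dropped to r = 0.447 without PBS 12 and rHCI 13, so that relation rests on those libraries. S100a4 and S100a11 passed by r (0.778, permutation p = 0.00981, adjusted 0.0465) and not by rho (0.770, permutation p = 0.0122, adjusted 0.0629), with 0.603 without the 2 farthest. S100a10 did not pass with S100a4 (r = 0.660, permutation p = 0.0349, adjusted 0.0967) or with S100a6 (r = 0.740, permutation p = 0.013, adjusted 0.0522), nor by rho. Without the 2 farthest libraries r was 0.092 with S100a4 and 0.776 with S100a6.

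Of the pairs of S100a1 with the stromal genes, only that with S100a11 passed, and by r alone. It had r = -0.811 (permutation p = 0.00526, adjusted 0.0316) and rho = -0.661 (permutation p = 0.0424, adjusted 0.139), with r = -0.652 without rHCI 3 and rHCI 13. The pairs of S100a1 with S100a4, S100a6 and S100a10 had r = -0.689, -0.746 and -0.689 (permutation p of 0.0284, 0.0153 and 0.0259, adjusted 0.0851, 0.0549 and 0.0848) and did not pass by r or by rho. Between S100a8 and the stromal genes S100a4, S100a6, S100a10 and S100a11, r lay between -0.468 and -0.005, and no pair passed. Within the 8 infarcted libraries of the shared run r was 0.955 for S100a8 and S100a9, 0.944 for S100a6 and S100a11, and -0.818 for S100a1 and S100a11, and 5 of the 36 pairs passed. The other infarcted libraries, PBS 6 and rHCI 1, carry different numbers and allow no value of their own.

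**Figure D5:**
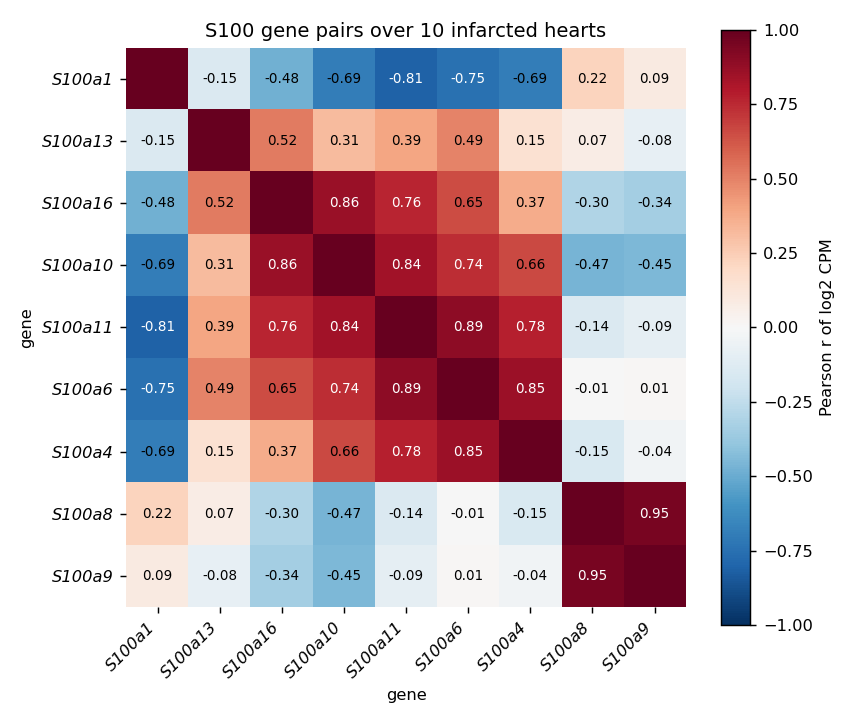
Pearson's r of log2 CPM between each pair of S100 genes over the 10 infarcted libraries, in red for positive and blue for negative values. S100a8 and S100a9 share the highest value (0.949). The stromal genes form a red block, in which S100a10 did not pass with S100a4 or S100a6. S100a1 has negative values with the stromal genes, of which the one with S100a11 passed by r.

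The genes most like each S100 gene over all 15 libraries were taken by Pearson's r of log2 CPM among 10346 genes with at least 5 CPM on average, as a description. The 15 libraries include the sham group, so a gene that differed between sham and infarcted hearts gains a high r from that difference alone. S100a11 was most like Anxa1, Fxyd5 and C1qtnf7 (r = 0.998 each), of which Anxa1 encodes its annexin partner. S100a6 was most like Ugdh (0.996), Dse (0.995) and Igfbp4 (0.994), and S100a4 most like Frrs1 (0.994), Flrt2 and Aebp1 (0.993 each). For S100a10 they were Carhsp1 (0.985), Ptma and Myh10 (0.983 each). S100a8 and S100a9 both had Csf3r, the receptor of the neutrophil growth factor G-CSF and a gene of the neutrophil list, as the nearest gene, at r = 0.973 and 0.981. Behind it came Serpina3n (0.961) and Rarres2 (0.957) for S100a8 and Zfp703 (0.973) and Vmac (0.962) for S100a9. S100a1 was most like Timm8b (0.990), a chaperone of protein import into mitochondria, Las1l (0.989) and Pdrg1 (0.987). S100a16 had Ero1l (0.959), Stk38l and Slc30a4 (0.952 each), and S100a13 had the lowest values, with Gpx3 (0.872), Lamp2 (0.871) and Pam (0.866).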

How the data were processed

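Stranded mRNA libraries of left ventricle, 5 per group, were sequenced per the labels' protocols. Raw read counts per gene, not normalized, were deposited by the authors as a single table in which every column belongs to a sample. Trimmomatic, STAR, Cufflinks, edgeR, GRCm38 and mm10 are listed in the submitters' processing notes with no role. The sources used here do not give the counter, its strand setting or its annotation. Groups come from titles. The labels call the samples biological replicates, and no replicate number is shared between groups. The lowest chi-square per gene over 30 replicate pairs was 10.7, and all libraries were kept as separate samples. Totals of 32978702 to 103356830 counts set the counting error.

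Each pair of groups was fitted on its 10 libraries with edgeR 4.0.16 (R 4.3.3): TMM, filterByExpr, glmQLFit and glmQLFTest, two-sided, with Benjamini-Hochberg adjustment over all genes tested. CPM used TMM factors of all 15 libraries, and log2 CPM a prior count of 2. Marker list scores are means of log2 CPM over the genes that passed filterByExpr over all 15 libraries. Scores and ratios were compared by exact two-sided permutation tests. The fit was tested on simulated counts. Alternatives were RLE factors, library totals, DESeq2 1.42.0, limma-voom (limma 3.58.1) with quality weights, other filters, all 15 libraries in 1 fit, the run (a number in the descriptions that the labels do not explain) as a model term, the 12 libraries of the shared run, a prior count of 0.5 and each replicate left out. Scalings of the lists and lists without PBS 6 were added after the data were seen.

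The members and lists were chosen with earlier results of these data known. Named were the 9 genes, up to 4 genes per pathway list with the largest change among those that passed, always Anxa2, Ryr2, Atp2a2, Ager and Tlr4, tested genes of the chromosome blocks, and the 3 genes with the highest r per member. Further list genes (Atp5a1, Sri, Casq2, Anxa6, Sugt1, Cd14, Cd36 and Bsg) were named after their values were seen. A gene that the rule gives is not reported here.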

Additional observations from a re-analysis of the deposited data

Results flagged for a closer look

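In each of 27 sets of 5 libraries, 1 per S100 gene and group, the highest and lowest library were compared with the gap to the next, and 2 sets held a library far from the others, where chance alone gives about 1 in 20. S100a11 was at 20.96 CPM in Sham 19, the highest sham library, against 16.9 to 18.1 CPM in the others, and without Sham 19 its log2 fold change in PBS against sham was 1.92. Sham 19 is the 1 sham library whose description has another number, read as the run though the labels do not explain it. S100a8 was at 5.977 CPM in PBS 2, the highest PBS library, against 1.60 to 2.81 CPM in the others. PBS 2 also had the highest summed neutrophil markers, 43.5 CPM. Without PBS 2 the log2 fold change of S100a8 was 2.92 (adjusted p 1.54e-06, edgeR) and that of S100a9 was 2.51.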

How the results depend on the processing

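In PBS against sham 166 of 171 alternative values of the 9 genes kept direction and call, and the 5 that did not were those of S100a13 given above. All 171 kept both in rHCI against sham. Without 1 replicate 8 to 9 genes passed in PBS against sham, with 7 to 8 higher and 1 lower, 9 (8 higher, 1 lower) in rHCI against sham and 0 in rHCI against PBS. Library totals moved the median of all genes by 0.28 and 0.22 in the comparisons with sham, and higher genes among those called went from 51.2% to 77.4% (8938 higher, 2610 lower) and from 53.4% to 79.0% (8011 and 2128). In the same setting 3 list calls of PBS against sham (Anxa6, Sugt1 and Gsn) changed sign.

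With the shared run alone, 0 of 18 marker comparisons and 0 of 6 partner ratios passed. The exact test of 4 against 4 libraries allows no p under 0.0286, and the smallest adjusted p obtained was 0.103 and 0.0857. These adjusted values also depend on how many tests reached that limit. Of the 36 correlations, 5 passed. Without 1 replicate 5 to 6 marker comparisons and 2 partner ratios passed.

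Values that changed sign were small. In rHCI against PBS S100a13 was -0.016 with library totals and S100a16 0.004 with limma-voom. Without 1 replicate that comparison gave -0.004 to 0.052 for S100a13, -0.033 to 0.03 for S100a16, -0.136 to 0.025 for S100a10 and -0.103 to 0.553 for S100a8. Relative to neutrophil markers in PBS against sham, S100a9 was -0.148 with a prior count of 0.5 and -0.134 to 0.181 without 1 replicate. In rHCI against PBS the shared run gave 0.024 for S100a11 relative to fibroblast markers, 0.001 for S100a8 and 0.077 for S100a9 relative to neutrophil markers. Without 1 replicate these were -0.039 to 0.033, -0.225 to 0.141 and -0.188 to 0.127, S100a4 relative to fibroblast markers -0.061 to 0.081 and S100a8 relative to S100a9 -0.123 to 0.06. With the shared run r was 0.035 for S100a13 with S100a9 and 0.001 for S100a6 with S100a8. The causes were not tested. S100a8 and S100a9 had the lowest counts of the 9 genes, 8 to 39 per sham library and 94 to 356 per infarcted library. They also varied most between libraries, with an SD of 61.6% and 50.7% of the mean in PBS. The part of depth in that spread was not tested.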

Other observations

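PBS 6, which held lung transcripts, is the deepest library. Among S100 genes too low to test, S100g was at 0.0919 CPM there (10 counts) and at most 0.0167 CPM elsewhere, and S100a14 at 0.156 CPM (17 counts) against 0.118 CPM in Sham 19 (6 counts), the next highest. S100a3 was highest in PBS 2 at 0.137 CPM (5 counts), and at 0.0459 CPM in PBS 6 (5 counts). Sftpc, a surfactant gene of the lung, had 4853 counts in PBS 6 and at most 7 in any other library.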
